A study of Bos taurus with 48 samples.

Results

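HTR6, ADRB1, HRH4, P2RY14 and S1PR3 encode receptors for amines, nucleotide sugars and lipids, and their transcripts were followed in the blood of dairy bull calves before and after weaning. They are 5 of the 24616 genes in the deposited table of read counts, where they carry the identifiers ENSBTAG00000007996 (HTR6), ENSBTAG00000001242 (ADRB1), ENSBTAG00000020467 (HRH4), ENSBTAG00000020990 (P2RY14) and ENSBTAG00000011374 (S1PR3). All 5 were among the 12677 genes that passed the filter on low counts. These receptor genes were chosen by their difference in counts between the breeds, HTR6 and P2RY14 on every sampling day, HRH4 on d 1, and ADRB1 and S1PR3 on d 8. The breed differences are therefore given as a description without a test, and the tests concern the change over days.

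The study asked how gradual weaning alters the blood transcriptome of Holstein-Friesian (H-F) and Jersey (J) bull calves. Whole blood was collected into tubes that stabilise RNA on d -14, the last milk-fed day before milk replacer was reduced, and on d 1 and d 8 after milk feeding ended. Each of 8 H-F and 8 J calves gave a library on all 3 days. J calf 85 was left out of all values unless it is named, which leaves 45 libraries of 15 calves. The 3 libraries of a calf are repeated samples of the same animal. All calves were clinically healthy, vaccinated on arrival, housed together and fed milk replacer and concentrate from automatic feeders. H-F calves came from a single farm and J calves from a pair of farms, and J calves were older on arrival, so breed, farm of origin and age cannot be told apart. The concentrate allowance before weaning also differed, although H-F calves did not eat up to theirs.

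Each of these receptors is a protein that crosses the cell membrane and passes the binding of a small molecule outside the cell to G proteins inside it. Among the amine receptors, HTR6 binds serotonin and is best known from brain, and ADRB1 binds adrenaline and noradrenaline and is best known from heart. HRH4 is the histamine receptor found mainly on mast cells and on blood cells such as eosinophils and basophils. P2RY14 binds UDP-glucose, a nucleotide sugar released by stressed cells, and S1PR3 binds sphingosine-1-phosphate, a blood lipid that guides vessel function and the traffic of white cells.

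Levels are in CPM, the read count of a gene scaled to the normalized size of its library. HTR6, ADRB1, P2RY14 and S1PR3 were scarce, with a median count over the 45 libraries of 66 for HTR6, 35 for ADRB1, 46 for P2RY14 and 67 for S1PR3, whereas HRH4 had a median count of 487. Counts were not divided by gene length, so levels are compared between calves and days and never between genes. In whole blood, fewer cells of a type and less RNA per cell cannot be told apart.

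**Figure D1:**
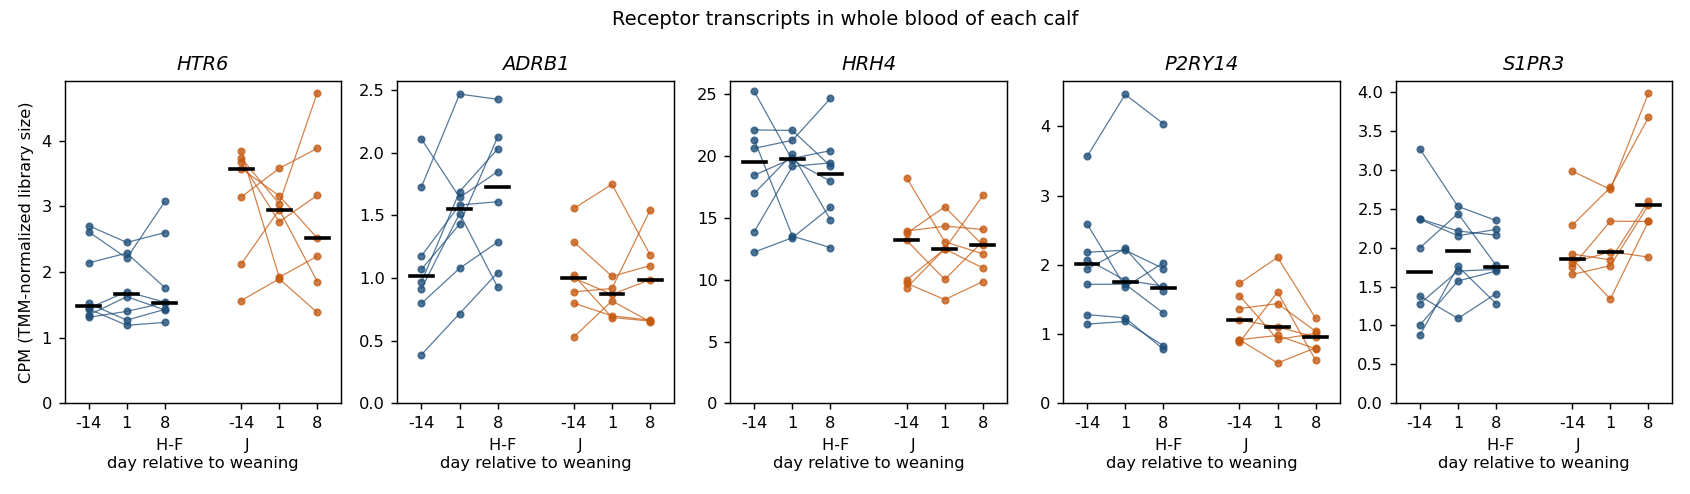
CPM of each receptor gene (vertical axis, from 0) in each calf by sampling day (horizontal axis), with H-F calves in blue, J calves in orange, a line joining the 3 samples of a calf and a black bar at the median of 8 H-F or 7 J calves. A calf that was high on one day tended to be high on the others, as in H-F calf 33 for P2RY14, but less so for HRH4. The breeds overlapped in every panel.

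HTR6 was higher in J than in H-F calves on each day. In H-F calves its level ran from 1.31 to 2.70 CPM (median 1.49) at d -14, from 1.19 to 2.45 CPM (median 1.66) at d 1 and from 1.23 to 3.07 CPM (median 1.54) at d 8. In J calves it ran from 1.56 to 3.85 CPM (median 3.58) at d -14, from 1.90 to 3.58 CPM (median 2.95) at d 1 and from 1.38 to 4.73 CPM (median 2.51) at d 8. The breeds overlapped on all days. J calf 6 had the lowest J value each time, 5 of the 7 J calves lay above every H-F calf at d -14 and again at d 1, and 3 of 7 did so at d 8. As a fitted difference, J calves were higher by 0.77 (SE 0.23) on the log2 scale at d -14, 0.64 (SE 0.24) at d 1 and 0.63 (SE 0.23) at d 8. In the order of the 6 group means of log2 CPM, the 3 H-F groups came first and the 3 J groups last, and the step of 0.57 between the highest H-F group and the lowest J group exceeded the pooled SD of 0.52, while all other neighbours differed by less than their SD.

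ADRB1 was lower in J than in H-F calves at d 8, the day on which it was chosen. In H-F calves its level ran from 0.389 to 2.11 CPM (median 1.02) at d -14, from 0.716 to 2.47 CPM (median 1.55) at d 1 and from 0.926 to 2.42 CPM (median 1.73) at d 8. In J calves it ran from 0.529 to 1.56 CPM (median 0.998) at d -14, from 0.684 to 1.75 CPM (median 0.869) at d 1 and from 0.651 to 1.54 CPM (median 0.986) at d 8. At d 8 all 7 J calves lay below the H-F median, against 4 of 7 at d -14, and 5 H-F calves lay above every J calf. The fitted difference of J from H-F was -0.18 (SE 0.27) at d -14, -0.64 (SE 0.27) at d 1 and -0.78 (SE 0.27) at d 8, and these values shifted with single calves. The difference at d -14 ran from -0.32 without J calf 60 to 0.0016 without H-F calf 25, the H-F calf with the highest level that day. Whether the difference changed over days was not tested. No neighbouring groups in the order of ADRB1 levels differed by more than their SD.

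HRH4, the best counted of these genes, was lower in J than in H-F calves on each day. In H-F calves its level ran from 12.2 to 25.2 CPM (median 19.6) at d -14, from 13.4 to 22.1 CPM (median 19.7) at d 1 and from 12.6 to 24.7 CPM (median 18.6) at d 8. In J calves it ran from 9.35 to 18.3 CPM (median 13.2) at d -14, from 8.39 to 15.9 CPM (median 12.5) at d 1 and from 9.86 to 16.8 CPM (median 12.8) at d 8. Every J calf was below the H-F median on every day. The breeds still overlapped, with 5 H-F calves above every J calf at d -14, 6 at d 1 and 5 at d 8. H-F calf 48 fell into the J range each time. At d -14 the highest J calf, calf 6, had 18.3 CPM and the next J calf 13.9 CPM. The fitted difference was -0.58 (SE 0.16) at d -14, -0.59 (SE 0.16) at d 1 and -0.50 (SE 0.16) at d 8. The step of 0.49 between the J and the H-F groups exceeded the pooled SD of 0.28, and groups within a breed differed by less than their SD. J calf 85, left out of these values, had 18.8 CPM on d -14, 23.4 CPM on d 1 and 31.4 CPM on d 8, above every other J calf each time. With this calf included, the fitted difference of J from H-F was -0.50 (SE 0.19) at d -14, -0.44 (SE 0.19) at d 1 and -0.26 (SE 0.19) at d 8, so the size of the difference at d 8 depends on leaving it out.

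P2RY14 was lower in J than in H-F calves on each day. In H-F calves its level ran from 1.14 to 3.56 CPM (median 2.01) at d -14, from 1.18 to 4.46 CPM (median 1.75) at d 1 and from 0.782 to 4.04 CPM (median 1.66) at d 8. In J calves it ran from 0.879 to 1.73 CPM (median 1.20) at d -14, from 0.581 to 2.11 CPM (median 1.10) at d 1 and from 0.620 to 1.23 CPM (median 0.956) at d 8. All 7 J calves were below the H-F median at d -14 and d 8 and 6 of them at d 1, and the breeds overlapped on each day. H-F calf 33 had the highest level on every day, and the next H-F calf at d 1 had 2.23 CPM. The fitted difference was -0.75 (SE 0.29) at d -14, -0.73 (SE 0.29) at d 1 and -0.95 (SE 0.30) at d 8, and without calf 33 these were -0.59, -0.46 and -0.66. No neighbouring groups in the order of P2RY14 levels differed by more than their SD.

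S1PR3 was higher in J than in H-F calves at d 8, the day on which it was chosen. In H-F calves its level ran from 0.874 to 3.27 CPM (median 1.69) at d -14, from 1.09 to 2.53 CPM (median 1.96) at d 1 and from 1.28 to 2.35 CPM (median 1.75) at d 8. In J calves it ran from 1.66 to 2.98 CPM (median 1.86) at d -14, from 1.34 to 2.77 CPM (median 1.95) at d 1 and from 1.88 to 3.99 CPM (median 2.54) at d 8. At d 8 all 7 J calves lay above the H-F median and 4 lay above every H-F calf, and 6 of 7 J calves lay above the H-F median at d -14 and 3 of 7 at d 1. The fitted difference was 0.16 (SE 0.22) at d -14, 0.13 (SE 0.22) at d 1 and 0.60 (SE 0.22) at d 8. At d -14 it ran from 0.044 without J calf 60 to 0.33 without H-F calf 25, and at d 1 from 0.039 without H-F calf 56 to 0.21 without J calf 7. Only the step of 0.38 from the J group at d 1 to the J group at d 8 exceeded the pooled SD, which was 0.37.

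The breeds did not separate completely for any of the 5 genes on any day, and complete separation was seen for 1.17% of all tested genes at d -14, 0.655% at d 1 and 0.844% at d 8. A fold change of 1.5, which the choice of genes used together with an adjusted p, is 0.585 on the log2 scale. S1PR3 at d 8 (0.60) and HRH4 at d 1 (-0.59) lay just past it, and HRH4 at d -14 (-0.58) and d 8 (-0.50) lay just short of it.

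The change around weaning was tested with edgeR's quasi-likelihood F test, with p-values adjusted over all tested genes by the Benjamini-Hochberg method, and the study's thresholds, an adjusted p under 0.1 together with a 1.5-fold change or more, defined a call. The mean change over both breeds uses a contrast that the choice of genes did not use, although it includes libraries that the choice used. The change within a breed shares libraries of a choosing day, d -14, d 1 or d 8, with the choosing contrast and is not independent of it. From d -14 to d 8, 0 of the 5 receptor genes were called over both breeds, where 0.245% of all tested genes were called, and their adjusted p was 0.648 to 0.984. From d -14 to d 1, 0 of 5 were called (background 0.00789%, adjusted p 0.918 to 0.996). From d 1 to d 8, 0 of 5 were called (background 0%, adjusted p 1 for each), 63 of all tested genes had an unadjusted p under 0.05, and DESeq2 also called 0 genes. None of the 5 had an unadjusted p under 0.05 in these comparisons over both breeds. Within H-F calves from d -14 to d 8, 0 of 5 were called (background 0.071%), and within J calves 0 of 5 (background 0%), where 277 of all tested genes had an unadjusted p under 0.05 and DESeq2 also called 0 genes.

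That test treats the 3 libraries of a calf as unrelated, whereas the calf numbers pair them. With calf as a block in the same model, 0 of the 5 receptor genes reached both thresholds from d -14 to d 8, where the background was 0.607% over both breeds, 1.08% in H-F and 0.205% in J calves. At the adjusted p alone, 2 of the 5 passed over both breeds from d -14 to d 8, P2RY14 and S1PR3, against a background of 10.9%, 0 of the 5 from d -14 to d 1, against a background of 3.36%, and 0 of the 5 from d 1 to d 8, where the background was 0% and 351 of all tested genes had an unadjusted p under 0.05. ADRB1 passed within H-F calves from d -14 to d 8, which is 1 of 5 against a background of 13.8%. It did not pass from d -14 to d 1 in H-F calves, where 0 of 5 passed against a background of 1.87%. Within J calves from d -14 to d 8, 0 of 5 passed, against a background of 0.308%. Dropping the fold threshold in the model with the block was chosen after the data were seen.

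**Figure D2:**
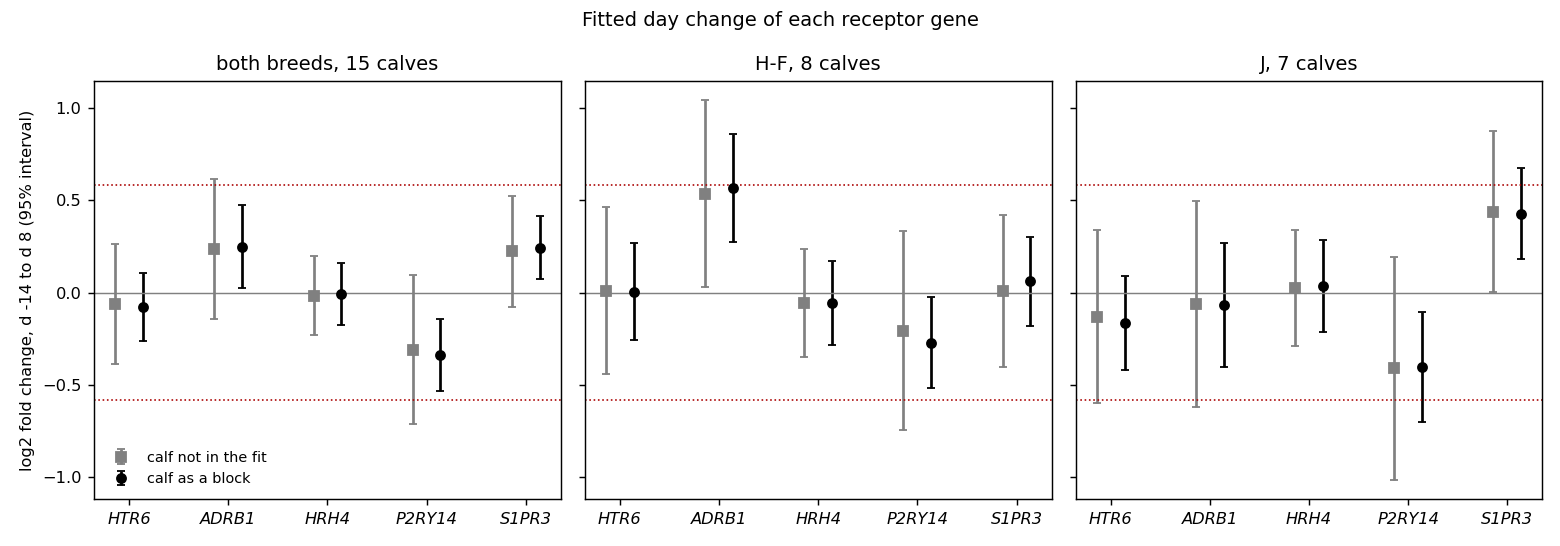
Log2 fold change from d -14 to d 8 of each receptor gene (vertical axis) with its 95% interval (normal approximation), over both breeds, in H-F and in J calves, without the calf in the fit (grey squares) and with calf as a block (black circles). Dotted lines mark a fold change of 1.5, and none of the black circles lies beyond them.

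P2RY14 declined in nearly all calves between d -14 and d 8. The change of single calves in log2 CPM ran from -0.67 to 0.18 (median -0.32) in H-F calves and from -0.60 to -0.18 (median -0.38) in J calves, so that 14 of 15 calves were lower at d 8, and H-F calf 33 was the exception. With calf as a block the change over both breeds was -0.34 (SE 0.10, adjusted p = 0.0354), against -0.31 (SE 0.21, adjusted p = 0.648) without it. The adjusted p with the block stayed between 0.0258 and 0.0753 when any one calf was left out. Within H-F calves the blocked change was -0.27 (SE 0.13, adjusted p = 0.173) and within J calves -0.40 (SE 0.15, adjusted p = 0.504). From d -14 to d 1 the blocked change was -0.014 (SE 0.10) with 9 of 15 calves higher, and from d 1 to d 8 it was -0.32 (SE 0.10, adjusted p = 0.999, unadjusted p = 0.0026) with 12 of 15 calves lower.

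ADRB1 was higher at d 8 than at d -14 in most H-F calves. The H-F libraries of d 8 also entered the breed contrast that chose ADRB1, so the tests of its change within H-F calves are not independent of the choice. The change of single H-F calves from d -14 to d 8 ran from -0.18 to 1.30 in log2 CPM (median 0.56), and 7 of 8 calves were higher, with calf 25 the exception. With calf as a block the change in H-F calves was 0.57 (SE 0.15, adjusted p = 0.0196), against 0.54 (SE 0.26, adjusted p = 0.441) without it, and it lay just under a fold change of 1.5. Leaving out any one calf kept the blocked change between 0.49 and 0.71 and its adjusted p between 0.00624 and 0.0847, the highest when H-F calf 48 was removed. Removing H-F calf 20 or 25 took the change over a fold of 1.5. From d -14 to d 1 the level was higher in the same 7 of 8 H-F calves, with a blocked change of 0.42 (SE 0.15, adjusted p = 0.185), which fell under the threshold without H-F calf 25 (adjusted p = 0.0735). J calves ran from -0.59 to 0.75 from d -14 to d 8, with 2 of 7 higher and a blocked change of -0.067 (SE 0.17, adjusted p = 0.978). The difference between the breeds' changes is built from the contrasts that chose the gene and was not tested.

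S1PR3 was higher at d 8 than at d -14 in every J calf that was kept. The J libraries of d 8 entered the contrast that chose it, and they also enter the mean over both breeds. The change of single J calves from d -14 ran from 0.057 to 0.67 in log2 CPM (median 0.41), while H-F calves ran from -0.47 to 0.73 (median -0.023), with 4 of 8 higher. J calf 85, left out of these values, had 2.06 CPM at d -14 and 2.05 CPM at d 8. Over both breeds the blocked change was 0.24 (SE 0.09, adjusted p = 0.091), with 11 of 15 calves higher, against 0.22 (SE 0.15, adjusted p = 0.658) without the block. With 16 calves and the block the change was 0.22 (adjusted p = 0.113). The pass at the adjusted p alone with 15 calves rested on single calves: it held in 5 of 15 fits with one calf left out. The H-F calves whose removal ended it were 27, 33, 48 and 49, the J calves were 6, 7, 9, 13, 57 and 60, and the adjusted p rose to 0.193 when J calf 9 was removed. Within J calves the blocked change was 0.43 (SE 0.12, adjusted p = 0.234), and within H-F calves 0.060 (SE 0.12, adjusted p = 0.802). From d 1 to d 8, 5 of 7 J calves were higher, with a median change of 0.48 in log2 CPM, and the blocked change of 0.39 did not pass (adjusted p = 0.9998, unadjusted p = 0.00388).

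For HTR6 and HRH4 no change of the group means was detected over the 3 days, although single calves moved. The HTR6 change was -0.079 (95% interval -0.26 to 0.10) over both breeds from d -14 to d 8 with calf as a block, and 6 of 15 calves were higher. The HRH4 change was -0.0099 (95% interval -0.18 to 0.16), and 8 of 15 calves were higher. These intervals lie inside a fold change of 1.5 in either direction. Single calves ranged from -0.76 to 0.34 for HTR6 and from -0.76 to 0.75 for HRH4 in log2 CPM.

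**Figure D3:**
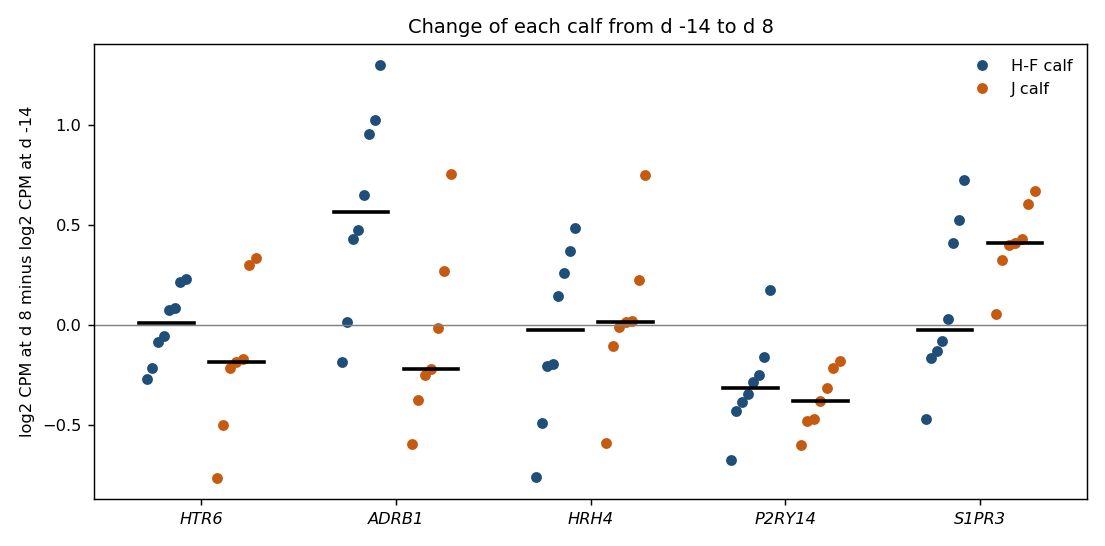
Log2 CPM at d 8 minus log2 CPM at d -14 (vertical axis) for each of 8 H-F calves (blue) and 7 J calves (orange), with a black bar at the median of each breed. P2RY14 lies below 0 in 14 of 15 calves, ADRB1 above 0 in 7 of 8 H-F calves, and S1PR3 above 0 in 7 of 7 J calves.

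Calves differed from each other more lastingly in 4 of these genes than in HRH4. Of the variance of log2 CPM within breeds and days, 77% lay between calves for P2RY14, 71.3% for HTR6, 68% for ADRB1 and 66.9% for S1PR3, but 36.5% for HRH4, and the median over all tested genes was 42.6%. The SD within a calf was 0.26 for P2RY14, 0.24 for HTR6, 0.29 for ADRB1, 0.25 for HRH4 and 0.24 for S1PR3 on the log2 scale. Counting error at the median count accounts for an SD of 0.21 for P2RY14, 0.18 for HTR6, 0.24 for ADRB1 and 0.18 for S1PR3, not far below the SD within a calf. For HRH4 the counting SD was 0.065, well below its SD within a calf.

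No correlation between the 5 genes was detected over calves. Over the 15 calf means with the breed mean removed, Pearson's r of the 10 pairs ran from -0.242 (P2RY14 and S1PR3) to 0.383 (HTR6 and P2RY14), and the lowest adjusted p of a two-sided permutation test was 0.627 for Pearson's r and 0.713 for Spearman's rho.

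The genes whose levels followed each receptor most closely were sought among the 701 other genes with a symbol, all of them genes the study listed as different between breeds, over 45 libraries after removal of breed and day means. HTR6 was most like ZMYND15 (r = 0.683), CCDC102A (r = 0.652) and HLA-DOA (r = 0.649), the last a chain of a class II antigen-presentation molecule. ADRB1 was most like KCNN1 (r = 0.675), a potassium channel, TMEM151A (r = 0.643) and OAS1X (r = 0.609), an oligoadenylate synthetase of the antiviral response. HRH4 was most like SMAD1 (r = 0.587), a mediator of bone morphogenetic protein signals, CLEC7A (r = 0.458), a receptor for fungal glucans, and GZMB (r = 0.453), a granule protease of cytotoxic cells. P2RY14 was most like ZNF169 (r = 0.629), HTRA1 (r = 0.612), a serine protease, and ALDH5A1 (r = 0.587), and S1PR3 was most like COX6A2 (r = 0.559), BANK1 (r = 0.534), a B cell scaffold protein, and MMP28 (r = 0.524), a matrix protease. Among all tested genes, most without a symbol here, others followed the receptors more closely: the named genes ranked 2 to 7 for HTR6, 15 to 63 for ADRB1, 7 to 84 for HRH4, 7 to 15 for P2RY14 and 10 to 27 for S1PR3. These correlations are descriptions, and the 3 libraries of a calf are not independent points.

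Other receptors for amines, nucleotides and lipids could be followed only where the study's lists paired an identifier with a symbol, so all are genes that the study chose on these samples. Of 98 receptor genes listed, 15 were matched, and 10 of these are not among the 5 described above. Over both breeds from d -14 to d 8, 2 of the 10 were called without the block, GPR34 and OXER1, against a background of 0.245%. The median log2 change of the 10 was 0.19, against 0.0014 over all tested genes. The 10 were chosen on these same libraries, so neither comparison speaks for such receptors as a class. GPR34, a receptor for lysophosphatidylserine, fell by 0.65 (SE 0.16, adjusted p = 0.0728), from a median of 5.43 to 3.35 CPM in H-F and from 4.39 to 2.25 CPM in J calves, and all 15 calves were lower at d 8. OXER1, the receptor for the chemoattractant lipid oxo-ETE, rose by 0.61 (SE 0.16, adjusted p = 0.0984), from a median of 0.415 to 0.746 CPM in H-F and from 0.911 to 1.11 CPM in J calves, and 8 of 8 H-F and 5 of 7 J calves were higher. Both calls were fragile without the block: GPR34 was called in 7 of 15 fits with one calf left out (removing H-F 25, 27, 33, 48, 49, J 6, 7 and 9 each ended the call), and OXER1 was called in 2 of the 13 such fits whose filter it passed. With calf as a block GPR34 was called in all 15 fits and OXER1 in 9 of 13.

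At the adjusted p alone with calf as a block, 4 of these 10 receptors passed over both breeds from d -14 to d 8, 3 higher and 1 lower, against a background of 10.9%. Beside GPR34 and OXER1 they were FFAR3, a receptor for short chain fatty acids (0.30, SE 0.10, adjusted p = 0.0761), and P2RX1, an ATP-gated ion channel of platelets (0.24, SE 0.08, adjusted p = 0.0564). In H-F calves 6 of the 10 passed, against a background of 13.8%, and in J calves 0 of the 10, against a background of 0.308%. The difference between the breeds was not tested, and since the study listed the 10 for breed differences in these same libraries, the backgrounds are no value for genes without change. ADRA2A, an adrenaline receptor that inhibits adenylyl cyclase (0.30, SE 0.08, adjusted p = 0.0227), FFAR3 (0.49, SE 0.15, adjusted p = 0.0358), OXER1 and S1PR5, a sphingosine-1-phosphate receptor of natural killer cells (0.27, SE 0.10, adjusted p = 0.0772), were higher, and GPR34 and the adenosine receptor gene ADORA3 (-0.51, SE 0.16, adjusted p = 0.0447) were lower. As a description of breed, FFAR3 and FFAR1, a receptor for longer fatty acids, were higher in J than in H-F calves by 1.01 (SE 0.27) and 1.06 (SE 0.30) at d -14, and OXER1 by 1.03 (SE 0.23), whereas LTB4R, the leukotriene B receptor, differed by -0.71 (SE 0.20), ADORA3 by -0.72 (SE 0.23) and P2RX1 by -0.60 (SE 0.22). At d 1 and d 8 these differences were 1.06 and 0.73 for FFAR3, 1.07 and 0.94 for FFAR1, and 0.54 and 0.73 for OXER1. They were -0.81 and -0.83 for LTB4R, -0.46 and -0.29 for ADORA3, and -0.48 and -0.47 for P2RX1. At d -14, d 1 and d 8, ADRA2A differed by 0.60, 0.41 and 0.27, and GPR34 by -0.42, -0.62 and -0.34. S1PR5 differed by -0.53 at d -14, -0.51 at d 1 and -0.71 (SE 0.14) at d 8. P2RY12, the platelet ADP receptor, differed by -0.97 (SE 0.40) at d 1. The P2RY12 value rested on H-F calf 33, without which it was -0.11, and the medians at d 1 were 12.6 CPM in H-F and 10.8 CPM in J calves.

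Of genes that make or remove the ligands or carry the signal onward, 3 of 34 listed were matched. GNAQ, the alpha subunit of a G protein that activates phospholipase C, changed by -0.49 (SE 0.12, adjusted p = 0.0111) in H-F calves and by -0.29 (SE 0.09, adjusted p = 0.0412) over both breeds from d -14 to d 8 with calf as a block. In J calves it changed by -0.090 (SE 0.13, adjusted p = 0.949), with 4 of 7 calves lower against 7 of 8 H-F calves, and 0 of the 3 passed there. ADCY9, an adenylyl cyclase, changed by -0.32 (SE 0.11, adjusted p = 0.0759) in H-F calves. SGPP2, a phosphatase that removes sphingosine-1-phosphate, changed by -0.17 (SE 0.13, adjusted p = 0.462) over both breeds. As a description it was higher in J calves by 1.28 (SE 0.27) at d -14, 0.53 at d 1 and 0.82 at d 8.

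**Figure D4:**
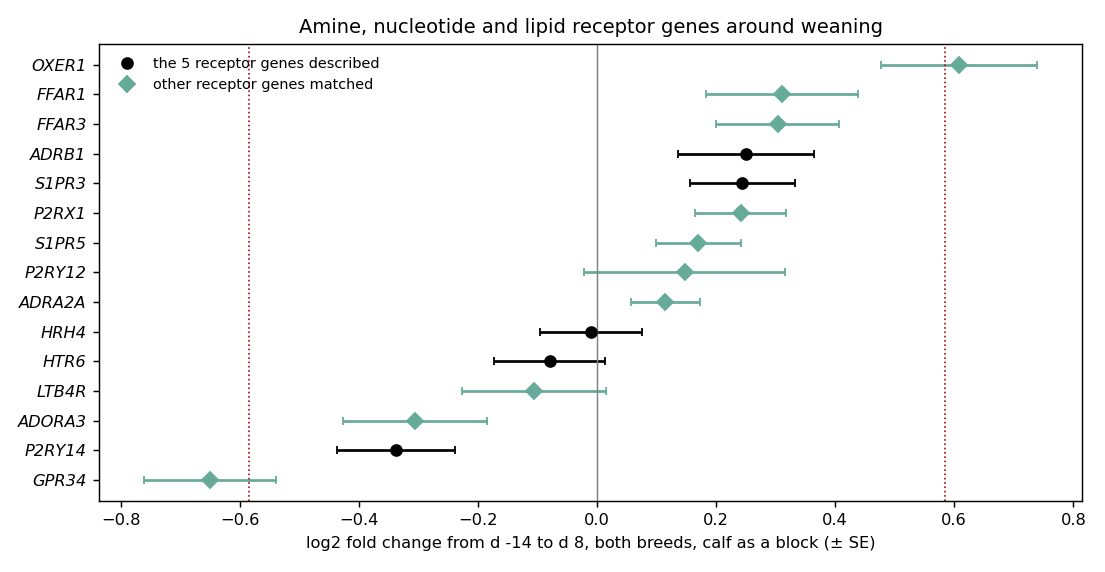
Log2 fold change from d -14 to d 8 over both breeds with calf as a block (horizontal axis, bars are SE) for the 15 receptor genes matched, the 5 described here as black circles and the other 10 as green diamonds. OXER1 lies beyond the dotted line of a 1.5-fold increase and GPR34 beyond that of a 1.5-fold decrease.

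Some marker genes of blood cells changed over the same days. Their breed differences are a description, since the study listed all the matched markers for such differences. Of 58 marker genes listed, 16 were matched, again all from the study's own lists, and no T cell or erythroid marker was among them. With calf as a block from d -14 to d 8, the background at the adjusted p alone was 13.8% in H-F calves, 0.308% in J calves and 10.9% over both breeds. The difference between the breeds was not tested. In H-F calves 2 of 3 B cell markers passed and rose (MS4A1 by 0.49 and CD79B by 0.36). The summed level of the 3 had a median of 450 CPM (range 262 to 559) at d -14 and 536 CPM (range 424 to 669) at d 8. In J calves 0 of these 3 passed, and the summed median was 696 CPM (range 499 to 844) at d -14 and 721 CPM (range 521 to 952) at d 8. The platelet marker PF4 changed by 0.46 (adjusted p = 0.0212) in H-F calves, the other 3 platelet markers did not pass, and the summed median of the 4 was 353 CPM at d -14 and 533 CPM at d 8. In J calves 0 of the 4 passed, PF4 changed by -0.19 (adjusted p = 0.815), and the summed median was 232 CPM at d -14 and 179 CPM at d 8. MSR1, the single monocyte marker matched, changed by -0.27 (adjusted p = 0.0549) over both breeds. Over calf means with the breed mean removed, P2RY14 had r from -0.491 (endothelial markers) to 0.522 (CXCR2) with the marker lists. Its r with MSR1 was -0.0463 (adjusted permutation p = 0.98). Calf means average over the 3 days and do not describe a change between days.

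Over both breeds from d -14 to d 8 with calf as a block, the background at the adjusted p alone was 10.9%. The B cell markers MS4A1 (0.29, adjusted p = 0.00039) and CD79B (0.15, adjusted p = 0.048) passed, and 0 of 4 platelet markers did. The lists not yet named did not pass: 0 of 2 eosinophil markers (SIGLEC8 and PRG3), 0 of 1 basophil or mast cell marker (KIT), 0 of 1 neutrophil marker (CXCR2), 0 of 2 natural killer or cytotoxic markers (NCR1 and GZMA) and 0 of 2 endothelial markers (CDH5 and VWF), although CDH5 passed in H-F calves (0.58, adjusted p = 0.0559). Between breeds at d -14 the eosinophil markers went opposite ways, SIGLEC8 differing by -0.69 (SE 0.23) and PRG3 by 1.84 (SE 0.58) in J from H-F calves, and their sum had a median of 8.14 CPM in H-F and 6.47 CPM in J calves. PRG3 was not steady, with -0.0078 (SE 0.61) at d 1 and 1.65 (SE 0.59) at d 8, whereas SIGLEC8 differed by -0.65 and -0.69. At d -14 KIT had medians of 26.1 and 22.7 CPM, CXCR2 53.0 and 37.2 CPM, MSR1 13.7 and 5.58 CPM, the cytotoxic markers 40.7 and 27.1 CPM and the endothelial markers 45.5 and 25.3 CPM. Over calf means with the breed mean removed, none of the 40 pairs of a receptor gene and a summed marker list passed (lowest adjusted permutation p 0.62 for Pearson's r and 0.463 for Spearman's rho), the largest r being 0.591 for HTR6 and the B cell markers and -0.564 for S1PR3 and KIT. The part of cell composition in the receptor values was not tested.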

How the data were processed

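The deposited values are read counts per Ensembl gene, without normalization, for 48 libraries and 92 spike-in sequences. The authors aligned paired end reads of poly(A) RNA to the bovine genome UMD3.1 with STAR and counted uniquely mapped reads with HTSeq. For versions of both and for the strand setting, nothing is given in the sources used here, so reads of overlapping genes on the opposite strand cannot be told apart. Library totals were 28088019 to 39095624 counts, and spike-ins were 0.174% to 0.322% of them. A gene near 1 CPM therefore has about 35 counts, and its counting error is large.

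The study left out a J calf without naming it. Calf 85 was identified because the mean log2 CPM without it differed from the mean levels in the study's tables by 0.000488 (root mean square), against 0.0507 without the next calf. Genes above 1 CPM in at least 8 libraries were kept. Group means for 6 groups of breed and day were fitted with edgeR 4.0.16 (TMM factors, quasi-likelihood F test) in R 4.3.3. Log2 CPM used a prior count of 2. The calf numbers in the sample titles pair the 3 libraries of an animal. The study's model has no calf term, so the blocked fit stands beside it where it changes a call, and the biological coefficient of variation was 0.185 without and 0.102 with the block. Alternatives were DESeq2 1.42.0, RLE size factors, no filter, 16 calves, no fold threshold and each calf left out in turn. Correlations over calves used 100000 permutations within breed. Tables were made in Python 3.11.15 with pandas 2.3.3, numpy 2.4.6 and scipy 1.17.1, and figures with matplotlib 3.10.9. The fits with and without the block were tried on simulated counts. Those counts held no differences between calves, so they cannot show how the block performs on repeated samples of an animal. The correlations were not part of that trial.

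The receptor genes, the lists of receptors and markers, and the tests were chosen with earlier results of these data known. Genes named beside the 5 receptor genes are matched members of those lists and, for each receptor gene, the 3 genes with a symbol whose log2 CPM correlated most with it. Symbols come from the study's lists, which give one for 702 of 800 identifiers. The study's own fold changes and p-values were not used. No genome of the build the counts use was used here, so no coordinates or sequences are given. One gene of the marker lists is not reported here, and no value includes it as a marker.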

Additional observations from a re-analysis of the deposited data

Results flagged for a closer look

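Each receptor gene was checked in each of the 6 groups for a calf standing apart from its group, which gives 30 groups, and chance alone puts about 1 in 20 groups past the limit used. In 3 groups the highest calf stood apart by its gap to the next calf relative to the group's range. H-F calf 33 had 4.46 CPM of P2RY14 at d 1, with a gap of 0.679 of the range, and 4.04 CPM at d 8, with a gap of 0.618 of the range. The same calf was also highest at d -14. J calf 60 had 1.75 CPM of ADRB1 at d 1, with a gap of 0.691 of the range, and 1.56 CPM at d -14, also the highest of its group.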

How the results depend on the processing

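The breed differences of the 5 receptor genes moved by less than the pooled SD of log2 CPM within groups under every alternative tried, but several moved by over 1.5 times. With 16 calves that of HRH4 at d 8 was -0.26, against -0.50 with 15. No alternative took a day change of the 5 genes past both thresholds, except that ADRB1 in H-F calves from d -14 to d 8 did so with calf as a block when H-F calf 20 or 25 was left out. With calf as a replicate block and no fold-change threshold, chosen after seeing the data, ADRB1 passed in H-F calves (0.57) and P2RY14 (-0.34) and S1PR3 (0.24) over both breeds, and over fits with one calf left out, with and without the block, the ADRB1 value was 0.46 to 0.71. With 16 calves and the replicate block, S1PR3 over both breeds did not pass (0.22, adjusted p = 0.113). ADRB1 in H-F calves (adjusted p = 0.0209) and P2RY14 over both breeds (adjusted p = 0.0151) did. With 15 calves the replicate block took no other comparison of these genes under the adjusted p threshold.

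Counts of genes called rested on the model far more. From d -14 to d 1 the block called 25 genes over both breeds, 32 in H-F and 7 in J calves, and 426, 237 and 7 without the fold threshold. In H-F calves DESeq2 called 1 gene, and 7 were called with no filter on low counts. From d -14 to d 8 the block called 77 over both breeds, 137 in H-F and 26 in J calves, and 1379, 1754 and 39 without the fold threshold. Without the block, dropping the fold threshold gave 70 over both breeds and 15 in H-F calves, and in H-F calves DESeq2 called 22, 44 were called with no filter on low counts and 5 with 16 calves. With one calf left out, the counts were 1 to 7 over both breeds and 0 to 1 in H-F calves from d -14 to d 1, and 16 to 31 over both breeds, 0 to 16 in H-F and 0 to 8 in J calves from d -14 to d 8.

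Changes near 0 turned sign, always below the thresholds. With 16 calves HRH4 over both breeds was 0.012 from d -14 to d 1 and 0.058 from d -14 to d 8, P2RY14 from d -14 to d 1 was -0.022, ADRB1 in J calves was 0.025 to d 1 and 0.0035 to d 8, and S1PR3 in H-F calves to d 8 was -0.00050. With 16 calves and the replicate block, HRH4 was 0.0018 and 0.035, P2RY14 -0.052, ADRB1 in J calves to d 1 0.020, HTR6 in H-F calves to d 8 -0.0011 and HTR6 over both breeds from d 1 to d 8 -0.011. P2RY14 over both breeds to d 1 was -0.014 with the replicate block, with or without the fold threshold, and -0.011 with RLE factors added. HTR6 in H-F calves to d 8 was -0.00067 with the replicate block and RLE factors, and S1PR3 there was -0.00025 with DESeq2. With one calf left out, with and without the block, values over both breeds were -0.057 to 0.028 (HRH4) and -0.086 to 0.082 (P2RY14) to d 1, -0.079 to 0.044 (HRH4) to d 8, and -0.011 to 0.15 (ADRB1), -0.034 to 0.041 (HRH4) and -0.057 to 0.089 (HTR6) from d 1 to d 8. In H-F calves to d 8 they were -0.13 to 0.051 (HRH4), -0.049 to 0.054 (HTR6) and -0.067 to 0.15 (S1PR3). In J calves they were -0.16 to 0.012 (ADRB1) to d 1, and -0.24 to 0.021 (ADRB1) and -0.099 to 0.15 (HRH4) to d 8. The cause was not tested.

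Correlations that turned sign were those of HTR6 and HRH4 (-0.187 with 16 calves, -0.195 at d -14 alone, -0.0712 at d 1 alone), ADRB1 and HRH4 (-0.0591 at d 1, -0.123 at d 8) and HRH4 and P2RY14 (-0.0347 at d -14), and none passed. At 35 to 67 counts per library, depth limits what can be seen in all of the genes but HRH4.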
